A study of Rattus norvegicus with 9 samples.

Results

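The genes described here encode cytochromes P450 and other detoxification enzymes of rat back skin. They were chosen by symbol from both deposited tables, as every row whose symbol begins with Cyp, Fmo or Ces followed by a digit, or with Gst, Ugt, Aldh, Akr or Sult. This gave 48 gene IDs of the 6197 listed in either table. Of these, 47 are among the 6025 rows for imiquimod against untreated skin, 4 are among the 399 rows for imiquimod with lidocaine against imiquimod, and 3 are in both. The tables hold only rows that the authors selected on these same libraries, so an enzyme without a row was not analysed here and its level is unknown.

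Detoxification enzymes are usually described in steps. Cytochromes P450, flavin-containing monooxygenases, aldehyde dehydrogenases, aldo-keto reductases and carboxylesterases oxidise, reduce or hydrolyse a compound, and glutathione, glucuronic acid or sulfate is then attached by glutathione S-transferases, UDP-glucuronosyltransferases and sulfotransferases. Liver is their best known site, but keratinocytes, sebaceous glands and hair follicles carry their own sets, which also act on steroids, retinoids, fatty acids and products of lipid peroxidation.

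Bulk RNA-seq covered 9 samples of back skin, from wild-type Sprague Dawley rats of 250 g. The 3 untreated samples came from rats given nothing. The 3 imiquimod samples came from rats whose back was treated for 6 days with imiquimod, an agonist of Toll-like receptor 7 that gives a psoriasis-like dermatitis. The 3 lidocaine samples came from rats that additionally received 1% lidocaine, a sodium channel blocker, by epidural injection over 4 days starting on day 3. All skin was taken on day 7. The labels name no vehicle cream and no sham injection, so effects of these cannot be told apart from those of the drugs, and they do not say whether the samples of a group are separate animals.

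Levels are normalized read counts on 1 scale for all 9 libraries, from which the reads per gene could be recovered. Rows of the imiquimod table held 15947423 to 22929894 reads per library and those of the lidocaine table held 417714 to 803921. Total depth is unknown, and 1 read was worth between 0.817 and 1.24 normalized counts. Differences are between group means of log2(normalized count + 1), with the standard error (SE) and the Benjamini-Hochberg adjusted p of limma over all rows of a table. This scale understates changes of low genes. Genes that passed an adjusted p of 0.05 are said to have risen or fallen. Because the rows were selected on the same libraries, these p-values are too small.

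With imiquimod, 25 of the 47 listed enzymes fell, 17 rose and 5 did not pass. Of all rows in the table, 40.8% fell and 47.0% rose, against 53.2% and 36.2% of the enzymes, a contrast that was not tested. The median difference of the enzymes was -1.29 on the log2 scale, or -1.20 with genes that had no read in 1 group set to their bound, against 1.15 over all 6025 rows. Every row differs by at least 1.00 in either direction, so such a median mainly shows which direction holds more rows. Of all rows 55.2% had a higher mean with imiquimod. The 3 imiquimod libraries lay outside the range of the untreated ones for 42 of the 47 enzymes, against 86.7% of all rows. Several families were divided. Both Ces1 genes fell while both Ces2 genes rose, and steroid-forming P450 genes fell while the listed Cyp4 genes rose. In bulk skin, fewer cells of a type and less RNA per cell cannot be told apart.

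**Figure D1:**
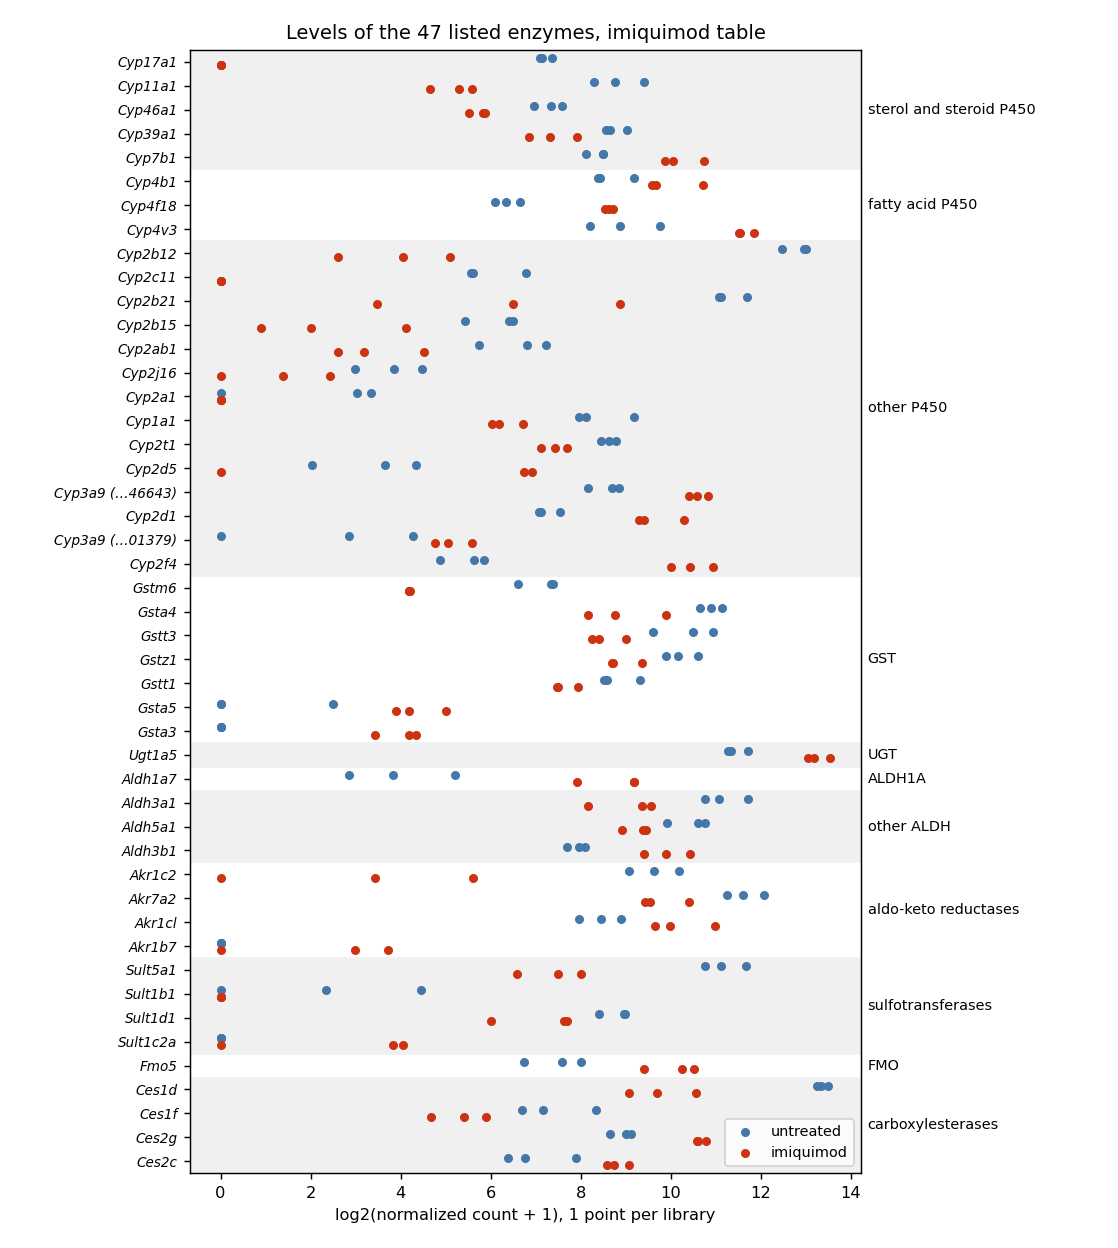
Level of each of the 47 enzymes listed in the imiquimod table, as log2(normalized count + 1) on the x axis, with 1 point per library, blue for untreated and red for imiquimod; shaded bands separate enzyme classes. For 42 of the 47 genes the red and blue points do not overlap.

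Markers of several cell types moved in the same comparison. Of 17 sebaceous gland markers 11 were listed, of which 10 fell and 1 rose, and their summed level was 95561 to 109998 normalized counts in untreated and 24039 to 31681 in imiquimod libraries. The 1 that rose, the lipid droplet gene Plin2, supplied 18146 to 26169 of the imiquimod sums, and the other 10 listed markers summed to 91588 to 106677 untreated and 4926 to 5894 with imiquimod. Of 24 hair follicle markers 23 were listed and all 23 fell, from a summed 2075789 to 4020821 to 58499, 4024 and 273765 in imiquimod replicates 1, 2 and 3. Of 12 macrophage and monocyte markers 11 were listed and rose, from 8777 to 18789 to 129972 to 172611, and of 14 T and NK cell markers 13 were listed and rose, from 792 to 2253 to 34619 to 41594. Of 14 adipocyte markers 8 were listed and 6 fell, and of 12 fibroblast markers 5 were listed, 3 falling and 1 rising. Of 16 markers of the epidermis between follicles 9 were listed, 4 up and 4 down, with a median difference of -1.44. Their summed levels were 484521 to 546979 untreated and 426830 to 862658 with imiquimod, which overlap. The keratin gene Krt14, which rose, supplied 181460 to 208251 of the untreated and 319029 to 640964 of the imiquimod sums. The overlap of these sums thus says little about the other listed epidermis markers. Of 7 melanocyte markers 6 were listed and 5 fell, from a summed 4944 to 8709 to 1386 to 2482, and of 9 endothelial markers 6 were listed and rose, from 3178 to 4966 to 9361 to 15682. Of the listed markers in the lists just given, the monocyte gene Clec4e alone had no read in a whole group, the untreated one. The part of any of these cell types in the enzyme differences was not tested.

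Of 5 listed P450 genes of steroid and sterol turnover, 4 fell and 1 rose. Cyp11a1, which cleaves the side chain of cholesterol in the opening step of steroid synthesis, was at 432, 678 and 311 normalized counts in untreated replicates 1, 2 and 3 and at 47.0, 24.3 and 38.4 in the imiquimod libraries, a difference of -3.63 ± 0.41 SE (limma adjusted p = 0.00084). Every imiquimod library was below every untreated one. Cyp17a1 (ENSRNOG00000020035), a later enzyme on the way to androgens, was at 164, 140 and 136 normalized counts without imiquimod and had 0 reads in all 3 imiquimod libraries. It was thus at least 54.2-fold lower, against a floor of 3 reads per library that covers counting error only. The limma difference of Cyp17a1 had an adjusted p of 2.03e-05.

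The hydroxylases of cholesterol and oxysterols went both ways. Cyp46a1, cholesterol 24-hydroxylase, fell from 160 ± 34.0 (SD, n = 3) to 52.8 ± 7.23 normalized counts, and Cyp39a1, which acts on the product of that enzyme, fell by 1.38 ± 0.36 SE on the log2 scale (limma adjusted p = 0.013). Cyp7b1, which hydroxylates oxysterols such as 25-hydroxycholesterol, was instead at 359, 359 and 279 untreated and at 1712, 1057 and 942 normalized counts with imiquimod. It rose by 1.85 ± 0.33 SE (limma adjusted p = 0.0038), 3.72-fold as a ratio of means. Among 31 other genes of steroid and vitamin D handling, 9 were listed, 6 of which fell and 2 rose. They include Hsd3b2, a 3-beta-hydroxysteroid dehydrogenase gene acting between Cyp11a1 and Cyp17a1 in hormone synthesis, at -7.56 ± 0.24 SE and with no read in the imiquimod libraries, and the vitamin D receptor gene Vdr, at -2.00 ± 0.50. Hsd11b1, whose enzyme regenerates active glucocorticoid, rose by 1.28 ± 0.35.

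All 3 listed members of the Cyp4 family, fatty acid hydroxylases, rose, where 47.0% of all rows in the table did. Cyp4v3, the rat counterpart of a human omega-hydroxylase, was at 467, 297 and 867 normalized counts untreated and at 3677, 2970 and 2939 with imiquimod, a difference of 2.69 ± 0.44 SE (limma adjusted p = 0.0028). Cyp4f18, known in mouse as a leukotriene B4 hydroxylase of neutrophils, went from 80.6, 67.1 and 99.3 to 374, 421 and 397 (2.27 ± 0.27 SE, limma adjusted p = 0.00097), and its imiquimod libraries were the more tightly grouped in relation to their mean. Cyp4b1 went from 344, 332 and 577 to 817, 766 and 1682, with 1.33 ± 0.43 SE (limma adjusted p = 0.026). Cyp4b1 did not pass when untreated replicate 1, untreated replicate 2 or imiquimod replicate 3 was left out (limma adjusted p up to 0.0787). Nor did it pass after median-ratio rescaling of the libraries (0.75 on the log2 scale, limma adjusted p = 0.113) or with adjustment over all protein-coding genes (limma adjusted p = 0.0999). The part of the leukocytes, whose markers rose, was not tested here.

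The remaining P450 genes, of the Cyp1, Cyp2 and Cyp3 families that oxidise drugs, steroids and arachidonic acid, were 14 rows, of which 8 fell, 4 rose and 2 did not pass. The widest difference of all 47 enzymes was that of Cyp2b12 (ENSRNOG00000031529), an arachidonic acid epoxygenase described in rat sebaceous glands. Untreated replicates 1, 2 and 3 had 7948, 5696 and 8260 normalized counts and imiquimod replicates 1, 2 and 3 had 33.1, 5.06 and 15.5. It fell by 8.90 ± 0.64 SE on the log2 scale (limma adjusted p = 0.00018), with means 408-fold apart, and its difference was -9.49 without imiquimod replicate 1 and -8.25 without replicate 2.

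Cyp2b12 stands in a cluster of Cyp2 genes on rat chromosome 1. In the order of assembly GRCr8, 18 protein-coding genes run from Cyp2s1 to Cyp2t1, and 6 of them are listed in the imiquimod table. Nearby, Cyp2b21 and Cyp2b15 fell as well. Cyp2b21 was at 2149, 2233 and 3295 untreated and at 88.8, 10.1 and 466 with imiquimod (-5.02 ± 1.29 SE, limma adjusted p = 0.012). Over the imiquimod libraries Cyp2b21 was highest in replicate 3 and lowest in replicate 2, as were the summed hair follicle markers. Cyp2b12 was also lowest in replicate 2 but was highest in replicate 1. The summed sebaceous gland markers without Plin2 had that order too, at 5894, 4926 and 5512 in imiquimod replicates 1, 2 and 3. Cyp2b15 was highest in replicate 3 and lowest in replicate 1. The likeness in order was not tested. With imiquimod replicate 2 left out the difference of Cyp2b21 was -3.62, and with replicate 3 left out -6.31.

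Cyp2b15 was at 84.1, 42.4 and 89.2 normalized counts untreated and at 0.871, 3.04 and 16.3 with imiquimod (-3.77 ± 0.84 SE, limma adjusted p = 0.0078; -3.05 without imiquimod replicate 1 and -4.66 without replicate 3). Further along the cluster, Cyp2t1 fell from 349, 393 and 438 normalized counts to 207, 172 and 138 (limma adjusted p = 0.0094). Cyp2a1, with between 0 and 9 reads per untreated library and none with imiquimod, did not pass, but did without untreated replicate 1 (limma adjusted p = 0.00206), which had no read of it. Without untreated replicate 3, Cyp2a1 was at -1.52 (limma adjusted p = 0.164). Cyp2f4 (ENSRNOG00000032805), which lies directly before Cyp2t1 and is known from lung for the oxidation of naphthalene, went the other way. It was at 48.4, 56.8 and 28.4 untreated and at 1387, 1029 and 1955 with imiquimod, up by 5.01 ± 0.40 SE (limma adjusted p = 0.00023), the largest rise among the 47 enzymes and 32.7-fold as a ratio of means.

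**Figure D2:**
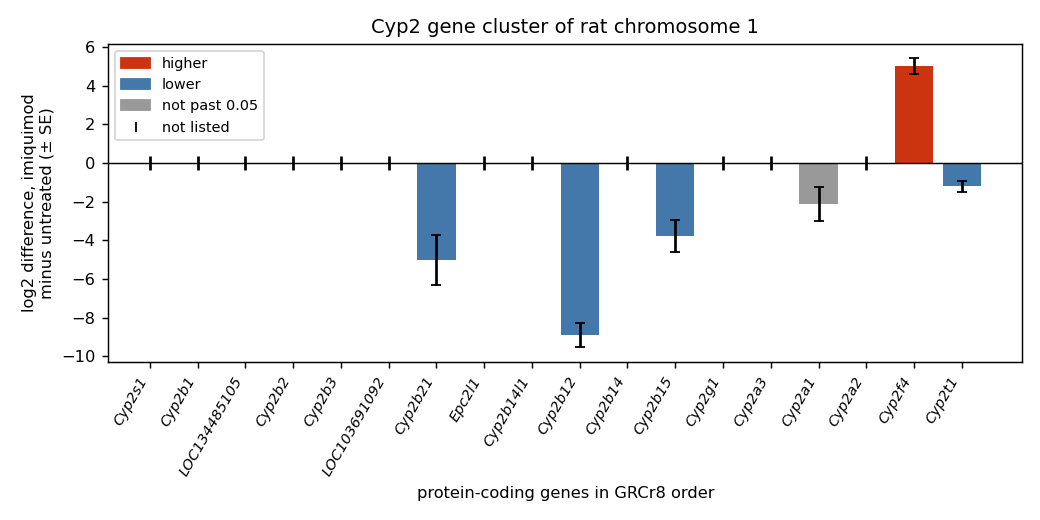
Difference of each gene of the chromosome 1 Cyp2 cluster between imiquimod and untreated skin, on the log2 scale with SE bars, with genes in GRCr8 order along the x axis; ticks at 0 mark genes that are not listed. Cyp2f4 rises by 5.01 beside Cyp2b21, Cyp2b12, Cyp2b15 and Cyp2t1, which fall.

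The 150 bases before the RefSeq start are shown for the 3 Cyp2b genes, which fell, and for Cyp2f4 of the same cluster, which rose. These genes were picked by their direction, and Cyp2t1, which also fell, was not compared. The Cyp2b genes share a subfamily that Cyp2f4 is not part of. Likeness of windows that goes with direction thus cannot be told apart from kinship. Sequences are of GRCr8, 5′ to 3′ on the strand of the gene, and capitals mark runs of at least 8 bases that all 3 Cyp2b windows share. The runs acctggaca and tggacagtg overlap in Cyp2b12 and Cyp2b15, so their capitals join there. In Cyp2b21 these runs lie apart, beginning at -115 and -15 from the start. They lie at chr1:91135144-91135293 on the plus strand for Cyp2b12, chr1:91042753-91042902 on the minus strand for Cyp2b21, chr1:91221715-91221864 on the plus strand for Cyp2b15 and chr1:91543618-91543767 on the plus strand for Cyp2f4.
Cyp2b12: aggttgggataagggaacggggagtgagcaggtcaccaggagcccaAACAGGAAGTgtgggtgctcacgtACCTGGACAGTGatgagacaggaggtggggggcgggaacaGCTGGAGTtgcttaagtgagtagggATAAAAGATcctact
Cyp2b21: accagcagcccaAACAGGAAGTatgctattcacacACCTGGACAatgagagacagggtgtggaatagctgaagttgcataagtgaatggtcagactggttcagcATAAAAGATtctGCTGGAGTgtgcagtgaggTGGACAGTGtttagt
Cyp2b15: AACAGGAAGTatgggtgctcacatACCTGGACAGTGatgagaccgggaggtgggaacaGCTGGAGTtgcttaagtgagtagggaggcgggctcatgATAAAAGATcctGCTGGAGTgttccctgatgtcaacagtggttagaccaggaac
Cyp2f4: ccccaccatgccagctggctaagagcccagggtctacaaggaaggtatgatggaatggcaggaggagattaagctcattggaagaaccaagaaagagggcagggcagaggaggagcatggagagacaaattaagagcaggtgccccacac

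The windows of the Cyp2b genes, from 250 bases before to 50 after the start, resemble each other. Local alignment gave 86.1% identity over 267 columns between Cyp2b12 and Cyp2b15, 76.5% over 272 between Cyp2b21 and Cyp2b15 and 73.0% over 259 between Cyp2b12 and Cyp2b21. Shared runs were searched only in the 150 bases printed, and none of them was found in those of Cyp2f4. In Cyp2b15 the run aacaggaagt begins at the first printed base, so its length is limited by where the printed stretch starts. Between Cyp2f4 and any of the 3, at most 25 columns aligned. The windows lie mostly before the start, so they do not measure likeness of the transcripts, which were not compared. Genes of the same subfamily may also share reads. How such reads were assigned is unstated in the labels and files, so the separate counts of Cyp2b12, Cyp2b15 and Cyp2b21 are uncertain.

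Among P450 genes outside the cluster, Cyp1a1, the standard target of the aryl hydrocarbon receptor, was at 276, 248 and 584 normalized counts untreated and at 72.3, 104 and 64.6 with imiquimod (-2.11 ± 0.42 SE, limma adjusted p = 0.0057). No imiquimod library reached the lowest untreated one. Another target of that receptor, Tiparp, rose by 2.54 ± 0.55 SE (limma adjusted p = 0.0074), so the pair went in opposite directions. Cyp2c11, the main male-type steroid hydroxylase of rat liver, was at 46.1, 47.5 and 110 normalized counts untreated and at 0 reads in all imiquimod libraries, at least 25.1-fold lower against the floor of 3 reads per library (limma adjusted p = 0.00014). Of 10 hepatocyte markers 5 were listed, of which 3 fell and 1 rose, with summed levels of 13103 to 19803 untreated and 151 to 4057 with imiquimod. Serpina1 made up most of these sums, and the other 4 listed markers summed to 164, 1154 and 336 untreated and to 35.7, 9.11 and 24.5 with imiquimod. Among them Apoa2 had no read in untreated and Ttr none in imiquimod libraries, and their part in the Cyp2c11 result was not tested.

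P450 genes that rose outside the cluster included Cyp3a9 and Cyp2d1. Cyp3a9, a drug and steroid hydroxylase, has 2 rows. In the row ENSRNOG00000046643 it went from 463, 286 and 412 to 1347, 1810.0 and 1537 normalized counts (2.03 ± 0.31 SE, limma adjusted p = 0.0021). The row ENSRNOG00000001379 was low, with between 0 and 18.4 normalized counts untreated and 26.2 to 47.0 with imiquimod, and it passed narrowly (limma adjusted p = 0.0448). Leaving out untreated replicate 2 or any of the imiquimod libraries ended that call (highest limma adjusted p 0.119). Without untreated replicate 1 or 3 its difference moved from 2.76 to 3.71 or 1.57.

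Cyp2d1 rose from 138, 133 and 184 to 1258, 630 and 674 (2.42 ± 0.37 SE, limma adjusted p = 0.0022). Cyp2d5, its direct neighbour and close relative, was at 105, 119 and 0 normalized counts in imiquimod replicates 1, 2 and 3 and at 3.10 to 19.3 untreated. It did not pass (limma adjusted p = 0.55), but did without imiquimod replicate 3 (3.48 on the log2 scale, limma adjusted p = 0.013). Reads of this pair may be divided between the copies. Of the other rows that fell, Cyp2ab1 was at -3.16 ± 0.62 SE, and Cyp2j16 went from 6.91, 13.4 and 21.3 to 4.36, 0 and 1.64 normalized counts (limma adjusted p = 0.0167). Cyp2j16 did not pass with untreated replicate 3 left out (limma adjusted p = 0.051), and was at -1.86 without imiquimod replicate 2.

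**Figure D3:**
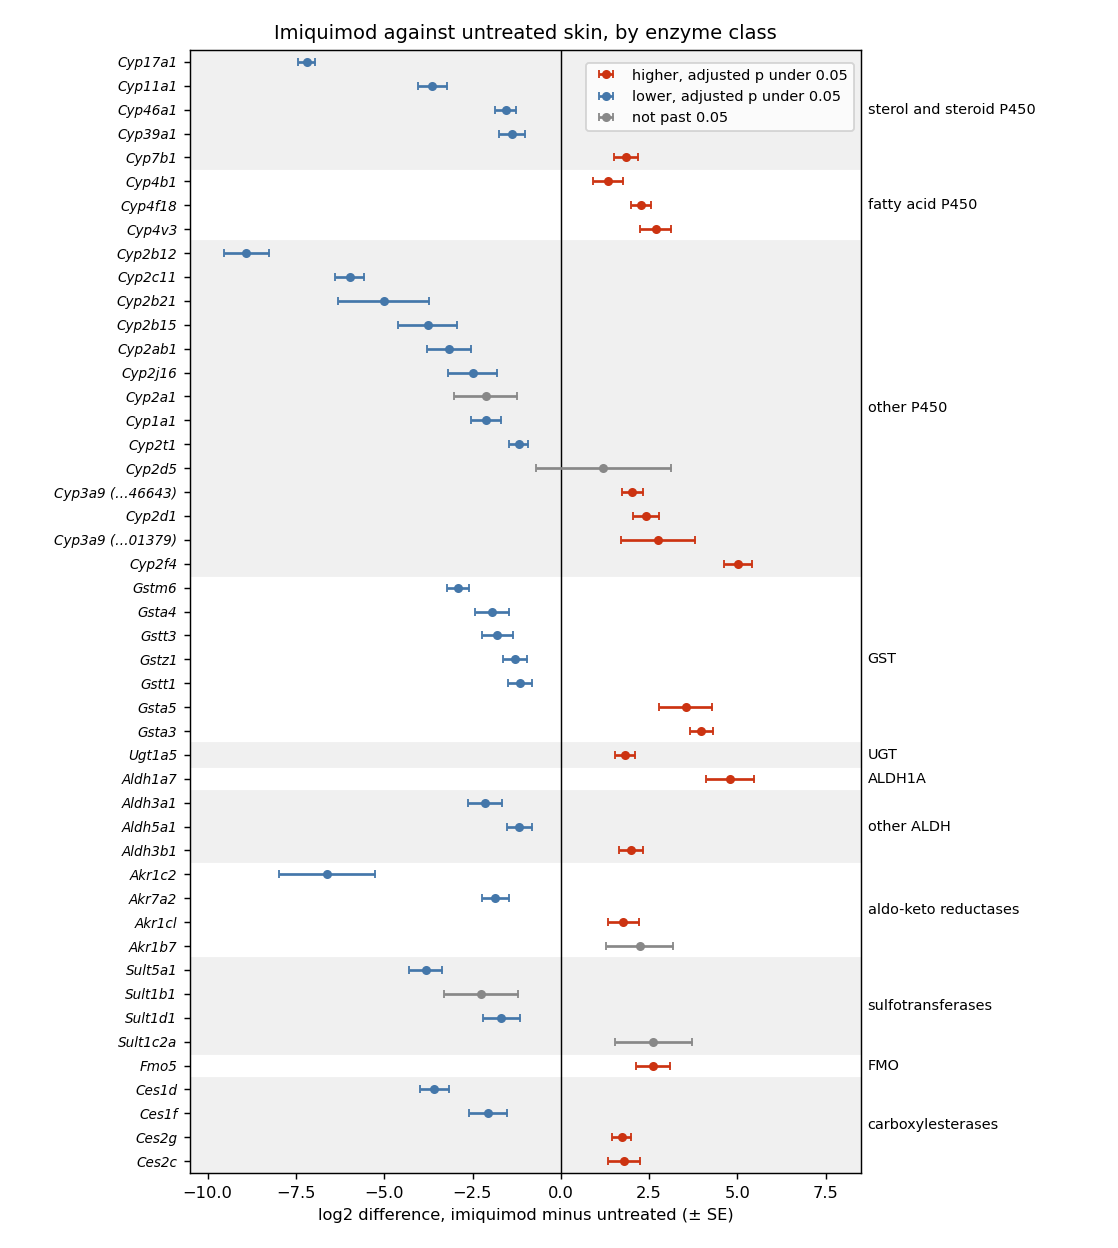
Difference between imiquimod and untreated skin for each listed enzyme, as log2 difference with SE bars on the x axis, grouped by enzyme class; red genes rose, blue genes fell and grey genes did not pass an adjusted p of 0.05. The values run from -8.90 for Cyp2b12 to 5.01 for Cyp2f4, with 25 blue, 17 red and 5 grey genes.

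Fmo5, the 1 listed flavin-containing monooxygenase, was at 191, 105 and 257 normalized counts untreated and 675, 1466 and 1213 with imiquimod (2.61 ± 0.47 SE, limma adjusted p = 0.0039), with no overlap. Of the carboxylesterases, which cleave ester and amide bonds in drugs and lipids, Ces1d, a triacylglycerol hydrolase in mouse, had 9716, 11460 and 10313 untreated and 831, 536 and 1512 with imiquimod. It fell by 3.58 ± 0.42 SE (limma adjusted p = 0.00094), and Ces1f, separated from it by 1 protein-coding gene in GRCr8, fell by 2.07 ± 0.54 (limma adjusted p = 0.0129). Ces2g and Ces2c rose by 1.73 ± 0.27 and 1.79 ± 0.45 SE (limma adjusted p = 0.0023 and 0.012). Ces2g stood at 552, 402 and 517 untreated and at 1555, 1769 and 1522 with imiquimod, 3.30-fold apart as means.

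Aldehyde dehydrogenases oxidise reactive aldehydes to acids, and 2 of their 4 listed genes rose and 2 fell. Aldh1a7 (ENSRNOG00000017878), a relative of the retinaldehyde dehydrogenases, was at 35.7, 6.20 and 13.2 normalized counts untreated and at 577, 242 and 576 with imiquimod. It rose by 4.80 ± 0.68 SE (limma adjusted p = 0.0018), 25.3-fold as a ratio of means, and by 5.42 without untreated replicate 1. Aldh3b1, which acts on aldehydes from lipid peroxidation, rose from 244 ± 34.1 to 1005 ± 352 normalized counts (SD, n = 3). Aldh3a1, known for its abundance in cornea, was at 2146, 1731 and 3384 untreated and at 657, 760 and 284 with imiquimod, with no overlap (limma adjusted p = 0.00805). Aldh5a1, the succinate semialdehyde dehydrogenase of GABA breakdown, fell by 1.17 ± 0.34 SE (limma adjusted p = 0.0192) and no longer passed once untreated replicate 1 or 2 was removed (limma adjusted p up to 0.0631).

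Aldo-keto reductases turn aldehydes and ketones, among them steroids, into alcohols. Akr1c2, of the hydroxysteroid dehydrogenase branch, was at 796, 1168 and 541 normalized counts untreated and at 47.9, 0 and 9.81 with imiquimod, a difference of -6.62 ± 1.36 SE (limma adjusted p = 0.00603) that was -5.11 without imiquimod replicate 2 and -7.92 without replicate 1. Akr1cl rose from 356 ± 112 to 1277 ± 642 normalized counts (1.78 ± 0.45 SE). Akr7a2, an aldehyde reductase that acts on succinate semialdehyde, fell from 3267 ± 946 to 925 ± 368 (limma adjusted p = 0.0067). Akr1b7 had 0 reads in untreated skin and 6.97, 12.1 and 0 normalized counts in the imiquimod libraries, and did not pass (limma adjusted p = 0.059). It passed without imiquimod replicate 3 (limma adjusted p = 0.0019).

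Of 24 retinoid genes outside the enzyme set 12 were listed, 8 of which fell and 3 rose. Stra6, the membrane receptor for retinol-binding protein, was at -5.53 ± 0.72 SE and Bco1, which cleaves beta-carotene, at -6.75 ± 0.85, whereas the retinol-binding gene Rbp2 rose by 2.77 ± 0.32 and Rarres1 by 3.22 ± 0.32. None of the Cyp26 genes for retinoic acid breakdown was listed, nor were Aldh1a1, Aldh1a2 and Aldh1a3. Of 36 electron donors and other oxidising or reducing enzymes 13 were listed, of which 10 fell and 3 rose. The soluble epoxide hydrolase gene Ephx2 fell (-2.99 ± 0.90 SE), as did the alcohol dehydrogenase gene Adh1 (-1.88 ± 0.39 SE) and the aldehyde oxidase gene Aox4 (limma adjusted p = 0.0181). Ephx2 was at 776, 87.8 and 674 normalized counts untreated and at 67.9, 48.6 and 26.2 with imiquimod. Its untreated replicate 2 thus lay close to the imiquimod libraries. The quinone reductase gene Nqo1 rose by 1.70 ± 0.37 and the xanthine dehydrogenase gene Xdh by 1.91 ± 0.30.

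Of the conjugating enzymes, 7 glutathione S-transferase genes were listed, and 5 fell and 2 rose. Gsta4, which conjugates the lipid peroxidation product 4-hydroxynonenal, was at 1907, 2248 and 1610 normalized counts untreated and at 945, 436 and 287 with imiquimod (-1.95 ± 0.48 SE, limma adjusted p = 0.011). Gstm6, of the mu class, fell from 160, 97.1 and 166 to 17.4, 17.2 and 17.2 (-2.92 ± 0.31 SE, limma adjusted p = 0.00063). The theta class genes Gstt3 and Gstt1, direct neighbours in GRCr8, fell (-1.80 ± 0.44 and -1.16 ± 0.33 SE), and Gstt1 did not pass without imiquimod replicate 2 or 3 (highest limma adjusted p 0.0541). Gstz1, the maleylacetoacetate isomerase of tyrosine breakdown, fell by 1.29 ± 0.34.

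The 2 glutathione S-transferases that rose were near the detection limit. Gsta3 had 0 reads in all untreated libraries and 19.2, 17.2 and 9.81 normalized counts with imiquimod, at least 4.81-fold higher against the floor (limma adjusted p = 0.00025). Gsta5 had 4.61, 0 and 0 untreated and 13.9, 31.4 and 17.2 with imiquimod (3.54 ± 0.76 SE, limma adjusted p = 0.0069), or 4.37 without untreated replicate 1. Alpha class genes include near-identical copies, and the RefSeq table gives Gsta5 also as a synonym of Gsta1 and of Gsta3, so these 2 rows are uncertain as single genes.

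Supply of glutathione and other conjugation was covered by a list of 36 genes, of which 14 were listed, 9 up and 5 down. The cystine transporter gene Slc7a11 rose by 1.36 ± 0.32 SE and the heme oxygenase gene Hmox1 by 1.45 ± 0.25, while the glutathione synthetase gene Gss (-1.62 ± 0.43), the gamma-glutamyltransferase gene Ggt1 (-4.96 ± 0.50) and the glutathione-degrading enzyme gene Chac1 (-4.95 ± 0.69) fell.

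Ugt1a5, the 1 listed gene of the UDP-glucuronosyltransferases, was at 2586, 2487 and 3367 normalized counts untreated and at 11961, 9340 and 8521 with imiquimod (1.82 ± 0.29 SE, limma adjusted p = 0.0025), 3.53-fold higher as means. Genes of the Ugt1a locus share their downstream exons, so reads given to Ugt1a5 could come from other genes of the locus. Ugdh, which makes the UDP-glucuronic acid that these enzymes use, rose by 1.02 ± 0.30 SE (limma adjusted p = 0.019).

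Sulfotransferases attach sulfate to phenols, steroids and amines, and of 4 listed genes 2 fell and 2 did not pass. Sult5a1 was at 2221, 3271 and 1740 normalized counts untreated and at 179, 95.1 and 256 with imiquimod (-3.83 ± 0.46 SE, limma adjusted p = 0.00098). Sult1d1, known in rodents for the sulfation of catecholamines, had 499, 509 and 339 untreated and 196, 63.8 and 205 with imiquimod (-1.68 ± 0.52 SE, limma adjusted p = 0.023). Sult1d1 missed the threshold when untreated replicate 1 or 2 was left out (limma adjusted p up to 0.0673). Its direct neighbour Sult1b1 had between 0 and 18 reads per untreated library and 0 with imiquimod, and Sult1c2a had 0 reads untreated and 0, 13 and 19 with imiquimod. The limma adjusted p of these low genes was 0.078 and 0.056, and each passed without 1 library, Sult1b1 without untreated replicate 2 (0.0112) and Sult1c2a without imiquimod replicate 1 (0.000658). In each case the library left out had no read of the gene. Without untreated replicate 1, Sult1b1 was at -1.17 (limma adjusted p = 0.174). Sult1c2a was at 2.02 without imiquimod replicate 2 and 1.91 without replicate 3 (limma adjusted p = 0.156 and 0.16).

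Sensors and transporters complete the pathway. Of 24 nuclear receptors and other sensors of foreign compounds and lipids 7 were listed, and 3 rose, 1 fell and 3 did not pass. The oxysterol receptor gene Nr1h3 rose by 1.67 ± 0.31 and Pparg by 1.22 ± 0.28 SE. Of 21 transporter genes 8 were listed, 4 up, 2 down and 2 not past the threshold. The efflux pump genes Abcb1a, Abcc2, Abcc3 and Abcc5 rose by 2.92 ± 0.31, 3.18 ± 0.63, 1.96 ± 0.34 and 2.90 ± 0.26 SE, whereas the efflux pump gene Abcg2 (-4.51 ± 0.77) and the uptake transporter gene Slco1a2 (-4.03 ± 0.34) fell. Abcc2 was near the detection limit, at 3.455, 0 and 3.04 normalized counts untreated and 27.9, 24.3 and 17.2 with imiquimod.

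RefSeq windows of 300 bases, from 250 before to 50 after the start, were found once for 32 of the 47 enzymes. The aryl hydrocarbon receptor motif TNGCGTG, on either strand, was in 1 of 19 windows of genes that fell, Akr7a2, in 0 of 8 of those that rose and in 4.89% of all 33469 windows. The NRF2 motif TGACNNNGC was in 2 of the 8 that rose, Ces2g and Cyp4b1, in 1 of the 19 that fell, Gstz1, and in 12.1% of all windows. The interferon-stimulated response element was matched in none of the enzymes' windows and in 3.92% of all. A match is only a description of these letters in these windows.

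In the lidocaine table, which asks what the epidural injections changed in imiquimod-treated skin, the 4 listed enzymes were Aldh1a7, Cyp2b12, Sult1d1 and Akr7a3. All 4 had lower means with lidocaine, where 131 of all 399 rows (32.8%) had a higher one. By limma 0 of 4 passed an adjusted p of 0.05, with 3 of the 4 under an unadjusted p of 0.05. Over all 399 rows 21.1% fell and 11.0% rose by the adjusted p, and 68.9% had an unadjusted p under 0.05. Their differences of -1.25 to -2.21 stand beside a median of -1.17 over the table, whose rows all differ by at least 1.00 in either direction.

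Aldh1a7 was at 577, 242 and 576 normalized counts with imiquimod and at 229, 171 and 19.9 with added lidocaine, a difference of -2.21 ± 0.86 SE (limma adjusted p = 0.065). The groups did not overlap, and the lowest lidocaine library set much of the size, which was -1.12 without lidocaine replicate 3. How often groups overlapped over all rows of this comparison was not counted. Sult1d1 was at 196, 63.8 and 205 and at 30.4, 77.2 and 79.4 (-1.25 ± 0.62 SE, limma adjusted p = 0.084), and these groups overlapped. Cyp2b12 was already near its floor with imiquimod, at 38, 5 and 19 reads, and had 0, 5 and 5 reads with lidocaine (-2.16 ± 0.85 SE, limma adjusted p = 0.0654). The value was -1.57 with imiquimod replicate 1 left out, -2.82 with imiquimod replicate 2 left out and -1.29 with lidocaine replicate 1 left out. Akr7a3, an aflatoxin aldehyde reductase that stands next to Akr7a2 in GRCr8, had 35, 4 and 13 reads with imiquimod and 4, 3 and 3 with lidocaine (-1.49 ± 0.65 SE, limma adjusted p = 0.0703). It passed without imiquimod replicate 2, at -2.13 (limma adjusted p = 0.0495), and was at -0.81 without imiquimod replicate 1.

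**Figure D4:**
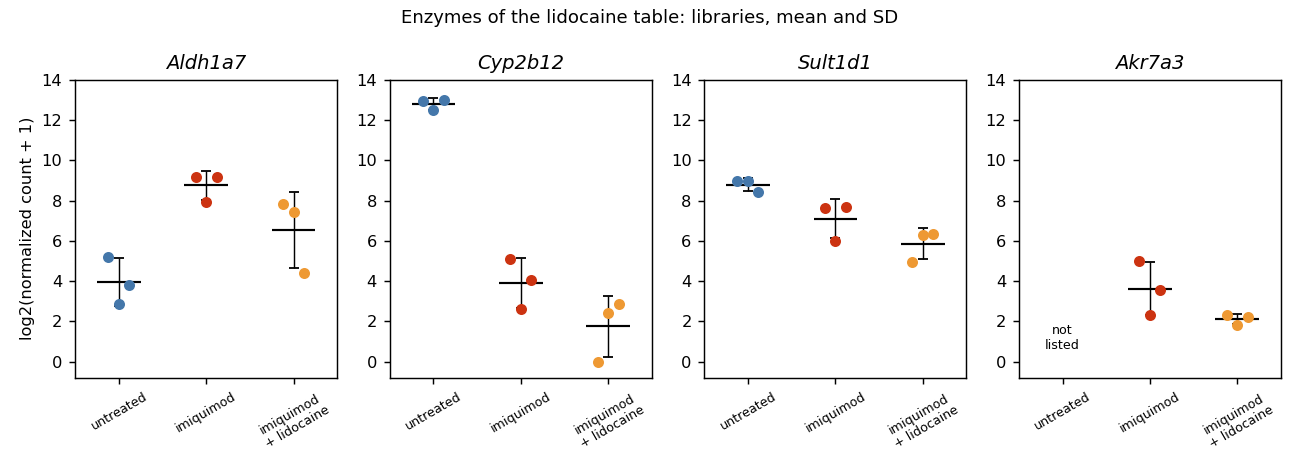
The 4 enzymes of the lidocaine table in each group, as log2(normalized count + 1), with 1 point per library and the mean and SD of the 3 libraries as lines; Akr7a3 has no untreated values. Cyp2b12 falls from untreated to imiquimod and stays low with lidocaine, and Aldh1a7 with lidocaine lies between the other 2 groups in 2 of 3 libraries.

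The 3 enzymes in both tables can be set against untreated skin, in a limma fit to the 9 libraries over the 227 shared gene IDs, of which 30.4% were higher and 44.1% lower with imiquimod and lidocaine than untreated. Cyp2b12 was lower (-11.06 ± 0.79 SE, limma adjusted p = 5.8e-07) and Sult1d1 was also lower (limma adjusted p = 0.000566), with no overlap of the groups for either. The share of all shared gene IDs without overlap was not counted. The difference of Cyp2b12 was -10.19 without lidocaine replicate 1. Aldh1a7 was higher by 2.59 ± 0.89 SE (limma adjusted p = 0.0197), but the 19.9 normalized counts of lidocaine replicate 3 lay within the untreated range of 6.20 to 35.7. Aldh1a7 did not pass without untreated replicate 2, lidocaine replicate 1 or lidocaine replicate 2 (limma adjusted p = 0.0768, 0.0968 and 0.0927), and was at 3.21 without untreated replicate 1 and 3.68 without lidocaine replicate 3. The comparisons share the imiquimod or the untreated libraries, so their values are not independent. The lidocaine table also held 7 other genes of these pathways, and 3 passed. Ephx2 rose by 2.25 ± 0.58 SE (limma adjusted p = 0.0245). With lidocaine it was at 315.2, 279.5 and 111.7 normalized counts, within its wide untreated range of 87.8 to 776. Arnt2, a relative of the partner protein of the aryl hydrocarbon receptor, rose as well (limma adjusted p = 0.0475). Hsd17b2, which inactivates sex steroids, fell by 3.43 ± 0.98 SE (limma adjusted p = 0.0358). Its level was low, at 87.1, 35.4 and 76.8 normalized counts with imiquimod and 7.86, 21.4 and 0 with lidocaine. Of the 16 epidermis markers 6 were in the lidocaine table, with 1 lower and 5 not passing, at summed levels of 101005 to 341978 with imiquimod and 29482 to 134627 with lidocaine. Their part in the enzyme values was not tested.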

How the data were processed

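RNA was measured in 9 back skin libraries. Per the labels' protocols, skin was frozen and ground and its total RNA isolated with TRIzol. Tools in the submitters' processing notes are STAR 2.5.3a, bcl2fastq and DESeq2. For the counting tool, genome build and strand setting the sources used here give nothing. The authors deposited log2(normalized count + 1) values for selected rows, each with group means at least 1.00 apart on the log2 scale. After removal of the log, every value of up to 2000 reads was a whole multiple of 1 step per library within 0.01.

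Each table was fitted with limma 3.58.1 in R 4.3.3, tested on simulated data first, and p-values were adjusted over all its rows. Folds are ratios of means, or lower bounds against 3 reads per library. Members, classes and lists were chosen with earlier results of these data known. Named were, per class, the 4 smallest adjusted p among genes that passed with a group mean of at least 50 normalized counts, all enzymes of the lidocaine table and a fixed panel. Other named enzymes, pathway genes among them, were chosen after their values were seen. Sequences are from RefSeq, GRCr8, matched by symbol for 44 of 48 gene IDs. The p-values measure only the spread between these samples, which may be technical. The values of 1 pathway gene are not reported here. The marker sums without Plin2 or Serpina1, and the part of Krt14 in the epidermis sums, were chosen after seeing the data.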

Additional observations from a re-analysis of the deposited data

How the results depend on the processing

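Of the 42 enzymes called with imiquimod, 36 kept their call in each of the 6 runs without 1 library, and 6 lost it in at least 1. Leaving out 1 library gave 15 to 17 enzymes higher and 24 to 25 lower, 0 higher and 0 to 1 lower in the lidocaine comparison, and 0 to 1 higher and 2 lower for lidocaine against untreated. At an adjusted p threshold of 0.01, 13 rose and 15 fell with imiquimod, and 0 enzymes were higher with lidocaine than untreated. Adjustment as if all 23154 protein-coding genes of the RefSeq table had been tested gave 15 and 19, and median-ratio rescaling over listed rows 15 and 25, with the median of all rows at 0.57 in place of 1.15. Shares of all rows called under the altered settings were not counted, so these counts cannot be set against the whole table. None of the 33 enzymes named by rule changed direction where a value was obtained under these settings, a pseudocount of 0.1, a minimum mean of 10 or a variance trend. Gsta3 and Akr7a3 gave none at the minimum mean, and Akr7a3 none under rescaling or adjustment over protein-coding genes. The low rows, such as Cyp2a1, Akr1b7 and Sult1b1, rest on 0 to 18 reads per library, which limits their precision.

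Same-numbered samples did not deviate together in the imiquimod table (r = -0.024, -0.232 and -0.014 across genes), so replicate numbers were not taken as pairs. With a replicate block, 18 enzymes rose and 23 fell with imiquimod, and in the lidocaine comparison 0 rose and 0 fell; Aldh5a1 and Gstt1 lost their call and Sult1c2a gained one (limma adjusted p = 0.0478). A protein comparison of near-identical enzymes was planned and not run.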
